A study of Mus musculus with 16 samples.

Results

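The genes described here are enzymes of fatty acid oxidation and targets of the nuclear receptor PPAR alpha, 33 of the 33730 genes in the count table, found by symbol from a fixed list. The list was split by role into 2 regulators, 3 genes of fatty acid uptake, binding and storage, 13 of mitochondrial oxidation, 5 of peroxisomal oxidation, 4 acyl-CoA thioesterases, 3 of omega oxidation and 3 other PPAR alpha targets. Pex11a, whose protein takes part in the division of peroxisomes, was counted under peroxisomal oxidation. All 33 were found, and all 33 passed the low-count filter, among 16206 genes that did. The levels were measured by RNA-seq of liver in 4 groups of C57BL/6 mice with 4 libraries each. WT DMSO mice were wild type and were injected with 1 µL/g of the solvent dimethyl sulfoxide (DMSO). WT CDDO-Me mice were wild type and received 3 mg/kg of CDDO-Me dissolved in DMSO. KO CDDO-Me mice carried Nrf2-/- and received the same dose, and KO untreated mice carried Nrf2-/- and received no injection.

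Injections were intraperitoneal, 24 h and 1 h before partial hepatectomy per the treatment protocol, whereas the design text places the resection 24 h after the treatments. Livers are labelled day 0. NRF2, the transcription factor encoded by Nfe2l2, is activated by CDDO-Me, a semisynthetic triterpenoid also known as bardoxolone methyl. Because KO controls received no vehicle, DMSO and CDDO-Me cannot be told apart in the KO drug comparison, nor vehicle and genotype in the comparison of controls. The sources used here give neither the age and sex of the mice nor the exons lost in the null allele. The design names 4 animals a group, and each library's label carries a running number of its own, but the labels do not say that this number is an animal, so p-values measure the spread between libraries.

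PPAR alpha binds DNA as a heterodimer with RXR and, when bound by fatty acids, raises transcription of genes for fatty acid use in fasted liver. Mitochondria shorten long-chain acyl groups after carnitine-dependent import, which CPT1A controls. Peroxisomes shorten very long chain and dicarboxylic acids and, in rodents, multiply when PPAR alpha is activated. Cytochrome P450 enzymes of the CYP4A family hydroxylate the omega end of fatty acids in the endoplasmic reticulum, and the dicarboxylic acids that follow are passed to peroxisomes.

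Library totals ranged from 12002317 to 99284626 counts, the largest in WT CDDO-Me 1. Levels are given as CPM, counts scaled to the size of the library. Nfe2l2 ranged from 42.8 to 74.9 CPM over the WT DMSO libraries and from 36.6 to 45.5 CPM with the drug. The KO libraries, where gene-level counts do not show which exons are lost, were at 32.1 ± 14.8 CPM (SD, n = 4) when untreated and 18.9 ± 2.25 CPM (SD, n = 4) after CDDO-Me. KO untreated 1, at 51.7 CPM, lay inside the WT DMSO range, whereas all 4 treated KO libraries lay below every wild-type library. The NRF2 target Nqo1 ranged from 3.21 to 4.22 CPM in wild-type controls, 30.7 to 45.9 CPM in treated wild type, 0.434 to 1.19 CPM in KO controls and 0.766 to 1.98 CPM in treated KO. All 8 hepatocyte markers were detected in each group, as the tissue label says. Counts on sense-intronic and TEC (provisional) gene models made up 0.673% to 0.967% of the counts in replicates 1 and 2 of both control groups. In the other 12 libraries they made up 0.186% to 0.407%. These 4 intron-rich libraries stand apart, as do KO CDDO-Me 1 and 2 from 3 and 4 for many of the genes below. Counts on ribosomal RNA genes were 0.173% to 0.634% of the total in 6 of the 8 wild-type libraries. They were 0.00595% in WT DMSO 4 and 0.0105% in WT CDDO-Me 1, whose running numbers follow those of the KO libraries, and 0.00108% to 0.0368% in the 8 KO libraries. Main values without these libraries, or with a term for the 10 libraries under 0.1%, are given beside the results they move most.

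On the length-scaled FPKM scale, Fabp1, the liver fatty acid binding protein, was at 1670 ± 326 (SD, n = 4) in WT DMSO, above every other gene of the list. The mitochondrial thiolase Acaa2 followed at 306 ± 69.5 FPKM and the peroxisomal thiolase Acaa1b at 222 ± 33.8 FPKM. Acaa2 and Acaa1b overlapped within 1 SD, and below them came Acadvl, the very long chain acyl-CoA dehydrogenase, at 105 ± 19.7 FPKM. Cyp4a10 lay at 40.4 ± 22.5 FPKM and Cyp4a14 at 25.0 ± 20.1 FPKM, which overlap within their spread. Acot3, a peroxisomal thioesterase, was the lowest at 0.372 ± 0.369 FPKM. The values below are CPM and compare libraries for 1 gene at a time.

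In wild-type liver, CDDO-Me was compared with DMSO to ask how the drug changes these genes when NRF2 is present. None of the 33 genes passed an adjusted p of 0.05 (edgeR quasi-likelihood test, Benjamini-Hochberg over all genes tested), against 0.728% of the genes tested. Fitted log2 fold changes were positive for 29 of 33, against 48.4% of all genes, with a median of 0.42 against -0.02 over all genes. At an unadjusted p under 0.05, 7 genes were higher and 0 lower, against 6.91% and 8.42% of all genes. With DESeq2, 1 of the 33 passed, against 471 of all 16206 genes. Those 7 were Ppara, Cd36, Plin2, Cpt1a, Slc25a20, Cpt2 and Acot4, and the CDDO-Me and DMSO libraries did not overlap for Cd36, Plin2, Cpt1a, Cpt2 and Eci1, 5 of 33 against 4.36% of all genes.

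Ppara encodes PPAR alpha itself. Its level was 129, 147, 186 and 69.3 CPM in WT DMSO replicates 1 to 4 and 167, 205, 183 and 193 CPM in WT CDDO-Me. WT DMSO 4 was the lowest and WT DMSO 3 lay inside the treated range, so the groups overlapped. The log2 fold change was 0.50 ± 0.23 (SE), with an adjusted p of 0.324. Creb3l3, a liver transcription factor that acts with PPAR alpha in fasting, was at 158, 211, 237 and 165 CPM and 201, 209, 227 and 237 CPM, a difference of 0.18 ± 0.15 with overlapping groups.

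Cd36, the fatty acid translocase, was at 17.3, 22.9, 38.9 and 37.7 CPM in WT DMSO and 55.7, 67.6, 42.9 and 47.3 CPM in WT CDDO-Me. Every treated library lay above every control library, and the log2 fold change was 0.87 ± 0.32 (adjusted p = 0.232). Plin2, which coats lipid droplets, was at 176, 163, 314 and 256 CPM and 581, 370.4, 339 and 363 CPM. WT CDDO-Me 1 was far above its group, the groups did not overlap, and the log2 fold change was 0.86 ± 0.25 (adjusted p = 0.128). The intracellular carrier Fabp1 showed no such separation, at -0.13 on the log2 scale. Macrophages and endothelial cells also express Cd36 and Plin2. The summed level of 6 of 6 detected liver endothelial markers overlapped, at 224 to 351 CPM with DMSO and 330 to 377 CPM with the drug. The summed level of 7 of 7 detected Kupffer cell markers was 158 to 203 CPM with DMSO and 359 to 500 CPM with the drug, and that of 6 of 6 stellate cell and fibroblast markers was 195 to 350 CPM and 402 to 451 CPM. Their part in these values was not tested, and in bulk tissue fewer cells of a type and less RNA per cell cannot be told apart.

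The 13 mitochondrial genes all had positive fitted values, from 0.27 to 0.64 on the log2 scale with a median of 0.47, and 3 of them had an unadjusted p under 0.05. Cpt1a, the carnitine acyltransferase of the outer mitochondrial membrane, was at 268, 315, 469.7 and 388 CPM in WT DMSO and 514, 476, 475 and 586 CPM in WT CDDO-Me. Slc25a20, the carnitine-acylcarnitine carrier, was at 53.3, 49.4, 85.0 and 64.2 CPM and 76.7, 92.0, 99.3 and 104 CPM. Cpt2, the acyltransferase of the inner membrane, was at 65.4, 58.6, 118 and 99.1 CPM and 120.2, 123, 138 and 150.2 CPM. For each of these 3 carnitine shuttle genes WT DMSO 1 and 2 were the lowest libraries of the pair of groups, and the log2 fold changes were 0.51 ± 0.22, 0.56 ± 0.20 and 0.64 ± 0.22. Their adjusted p-values were 0.298, 0.226 and 0.199.

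The mitochondrial values moved with the intronic share. For 7 of the 13 mitochondrial genes, and 8 of all 33, the 4 intron-rich libraries were exactly the 4 lowest of the 16, which held for 11.1% of all genes tested. All 4 are controls, so the intronic share and the drug cannot be fully told apart. Without these 4 libraries, WT DMSO 3 and 4 were the only wild-type controls. The mitochondrial median then fell from 0.47 to 0.08, with 9 of 13 genes positive, and 22 of the 33 genes were positive. With the intronic share as a covariate over all 16 libraries the mitochondrial median was 0.19, and 0.35 with the replicate block as well. Without the 4 libraries Cd36 gave 0.45, Plin2 0.51, Cpt1a 0.23, Slc25a20 0.29 and Cpt2 0.26 on the log2 scale.

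**Figure D1:**
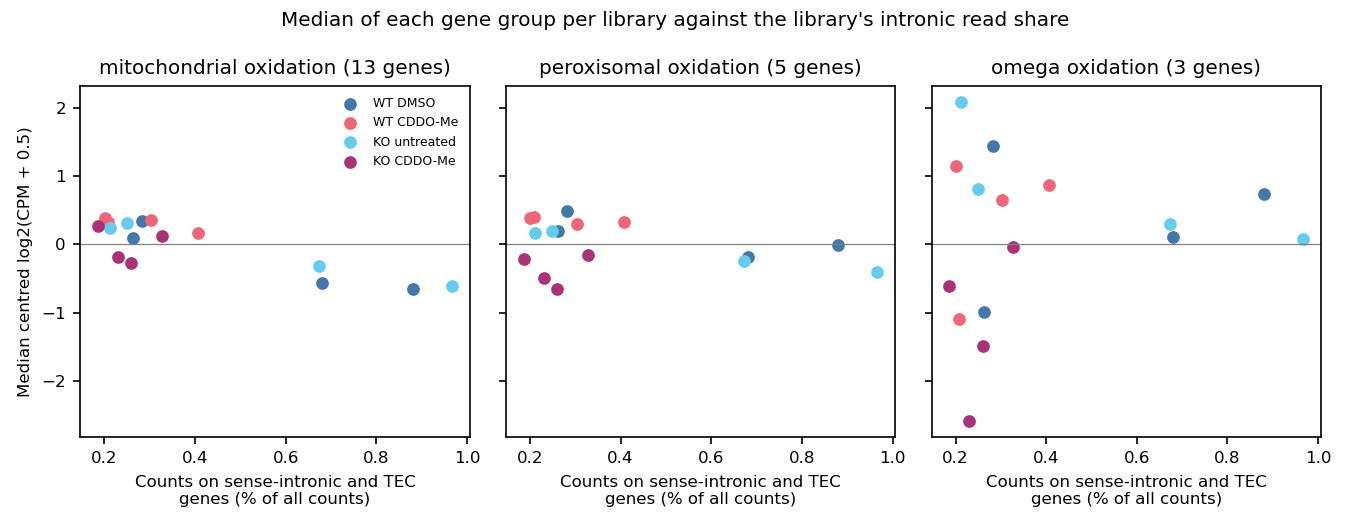
Each point is 1 library, placed by the share of its counts on sense-intronic and TEC genes (x axis, percent) and by the median over the genes of a role of log2(CPM + 0.5) minus the mean of all libraries (y axis), coloured by group. The 4 libraries at 0.673% or more have mitochondrial medians between -0.66 and -0.32, while the omega oxidation medians spread from -2.58 to 2.08 among libraries of low intronic share.

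The peroxisomal genes had fitted values of 0.14 to 0.54 in the same comparison, with a median of 0.22, and 0 of 5 had an unadjusted p under 0.05. Among the thioesterases, which free fatty acids from coenzyme A, Acot4 was at 16.4, 17.6, 31.6 and 15.5 CPM in WT DMSO and 38.3, 43.9, 25.3 and 46.4 CPM in WT CDDO-Me. WT DMSO 3 lay inside the treated range, and the log2 fold change was 0.92 ± 0.28 (adjusted p = 0.154). Leaving out WT DMSO 3 brought Acot4 past the threshold, the only gene of the list called in this comparison in any of the 16 fits that leave out 1 library. The omega oxidation genes gave -0.05, 0.33 and 0.97 for Cyp4a10, Cyp4a14 and Cyp4a31, each with overlapping groups. Pdk4, a kinase that restrains pyruvate dehydrogenase, gave 0.56 ± 0.50, and Vnn1 (pantetheinase) and Angptl4 (an inhibitor of lipoprotein lipase) gave 0.34 ± 0.58 and -0.18 ± 0.40.

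**Figure D2:**
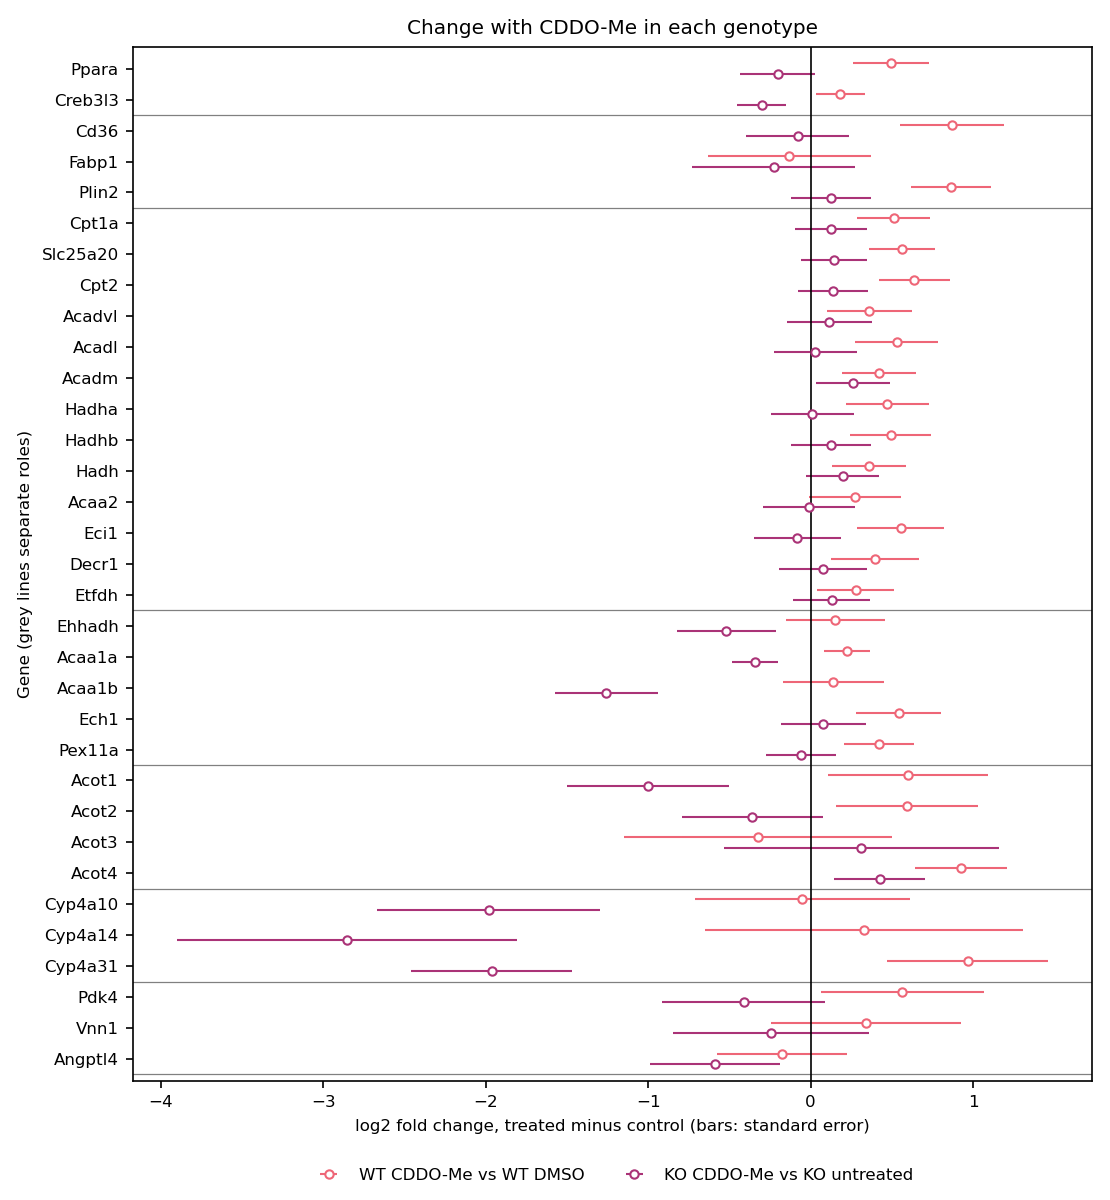
Log2 fold change with CDDO-Me (x axis, bars are 1 SE) for each gene (y axis, by role), in wild type against DMSO (pink) and in KO against untreated (purple), open points being genes that did not pass an adjusted p of 0.05. All 13 mitochondrial genes lie right of 0 in wild type, and the KO values of the 3 Cyp4a genes lie between -2.86 and -1.96 with wide errors.

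In Nrf2-/- liver, CDDO-Me was compared with no treatment to ask what the drug does without NRF2. None of the 33 genes was called, against 0.13% of the genes tested. Fitted values were positive for 15 of 33 (45.5% of all genes), with a median of -0.06 against -0.04 over all genes. At an unadjusted p under 0.05, 5 genes were lower and 0 higher, against 9.58% and 6.24% of all genes, and all 5 belonged to peroxisomal or omega oxidation. DESeq2 called 2 genes, Acaa1b and Cyp4a31, both lower, against 298 of all 16206 genes, of which 136 were lower. In this comparison the KO CDDO-Me libraries lay wholly below the KO untreated libraries for the same 2 genes, against 4.5% of all genes.

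Acaa1b, which encodes a peroxisomal 3-ketoacyl-CoA thiolase, was at 410.2, 434, 574 and 406 CPM in KO untreated and 102, 94.3, 254 and 313 CPM in KO CDDO-Me. All 4 treated libraries were lower, KO CDDO-Me 1 and 2 most of all. The log2 fold change was -1.26 ± 0.32, with an adjusted p of 0.137. Its close paralog Acaa1a differed by -0.34 ± 0.14 (adjusted p = 0.279).

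The CYP4A genes had the widest ranges among the libraries. Cyp4a10 was at 57.7, 71.9, 116 and 186 CPM in KO untreated and 7.53, 6.08, 35.5 and 59.9 CPM in KO CDDO-Me. Cyp4a14 was at 27.4, 23.5, 42.2 and 457 CPM and 15.0, 6.03, 23.0 and 31.7 CPM. Cyp4a31 was at 7.36, 6.61, 9.72 and 24.1 CPM and 1.58, 2.11, 3.38 and 5.12 CPM. KO untreated 4 was the highest library for all 3 genes, and KO CDDO-Me 1 and 2 were below KO CDDO-Me 3 and 4 for all 3. The log2 fold changes were -1.98 ± 0.68, -2.86 ± 1.05 and -1.96 ± 0.50, with adjusted p-values of 0.238, 0.246 and 0.140. Without KO untreated 4 they were -1.58, -0.70 and -1.36, the Cyp4a14 value moving most.

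The wild-type libraries showed a similar width for these genes. Cyp4a10 was at 61.9, 94.1, 149 and 29.7 CPM in WT DMSO and 93.8, 82.8, 25.1 and 121 CPM in WT CDDO-Me. Cyp4a14 was at 41.6, 64.9, 147 and 5.74 CPM and 136, 80.6, 10.6 and 97.2 CPM. Cyp4a31 was at 5.12, 5.20, 3.28 and 2.43 CPM and 10.1, 8.63, 2.29 and 9.91 CPM. WT DMSO 4 and WT CDDO-Me 3 were the lowest of their groups for all 3 genes. The highest library exceeded the lowest 15.3-fold to 79.5-fold among the omega oxidation genes, and at most 2.87-fold among the mitochondrial genes.

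The mitochondrial genes differed little in the KO drug comparison, from -0.08 to 0.26 on the log2 scale with a median of 0.12. Without the 4 intron-rich libraries, 2 of which are KO untreated, this median was -0.20, with 0 of 13 genes positive. Without KO CDDO-Me 1 and 2 it was 0.28, with 13 of 13 positive. The direction of the mitochondrial median therefore turned with the libraries used. The omega oxidation median, -1.98, was -2.44 and -1.48 in the same pair of fits, and the peroxisomal median, -0.34, was -0.45 and -0.17. None of the 33 genes was called in either fit.

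**Figure D3:**
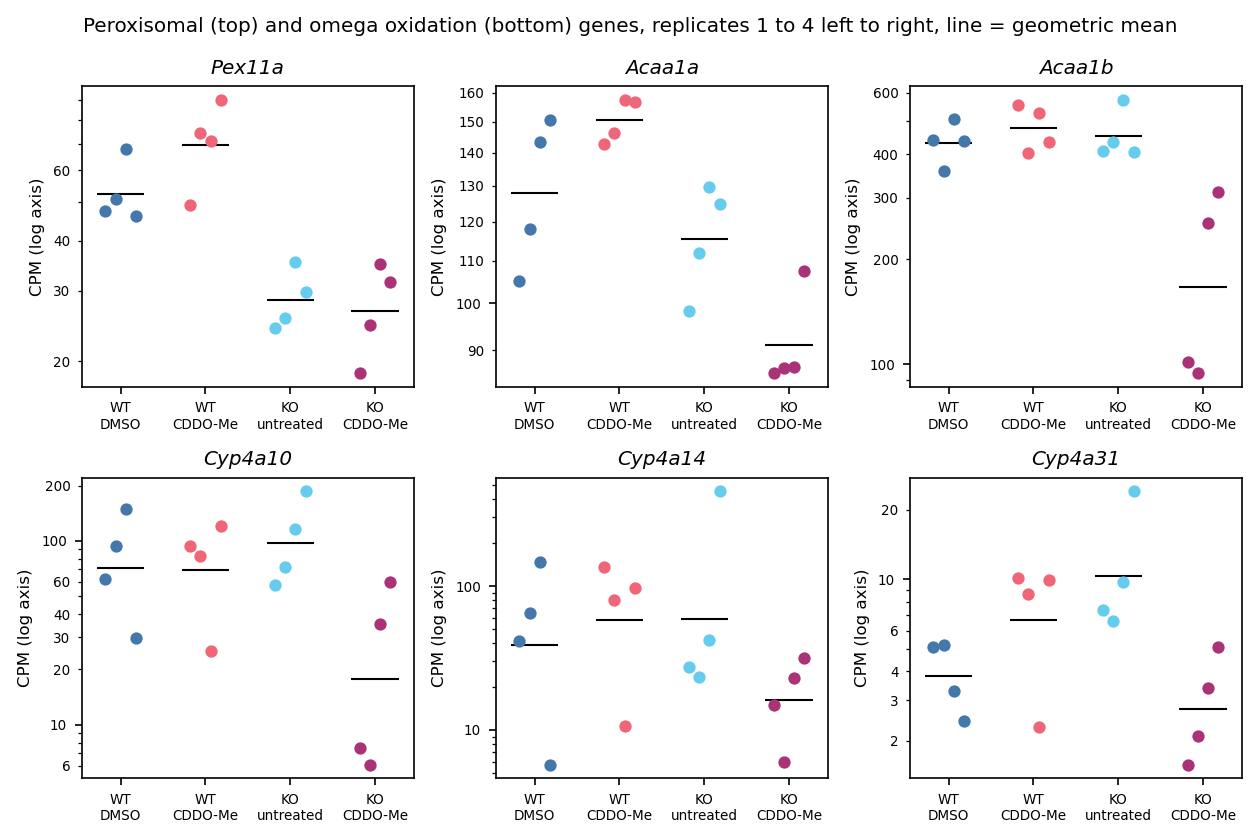
CPM on a log axis for 3 peroxisomal genes (top) and 3 omega oxidation genes (bottom), with 1 point per library, replicates 1 to 4 from left to right in each group, and a line at the geometric mean. Every KO CDDO-Me point lies below every WT CDDO-Me point for Pex11a, Acaa1a and Acaa1b, while the groups overlap for the Cyp4a genes.

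KO untreated was compared with WT DMSO to ask what loss of NRF2 does without the drug. None of the 33 genes was called, against 1.38% of the genes tested, and fitted values were positive for 19 of 33 (50.5% of all genes). At an unadjusted p under 0.05, Cyp4a31 was higher and Pex11a, Vnn1 and Angptl4 were lower, against 6.65% and 7.46% of all genes. DESeq2 called 2, Pex11a lower and Cyp4a31 higher, against 657 of all 16206 genes (412 lower and 245 higher). The groups did not overlap for the same 2 genes, against 3.04% of all genes for the lower and 2.87% for the higher direction.

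Pex11a, a peroxisomal membrane protein that takes part in the division of peroxisomes, was at 47.6, 50.9, 68.0 and 46.3 CPM in WT DMSO and 24.3, 25.7, 35.3 and 29.7 CPM in KO untreated. All 4 KO libraries lay below all 4 wild-type libraries. The log2 fold change was -0.89 ± 0.22, with an adjusted p of 0.0561. With the replicate number as a block, in a pairing that rests on correlations alone and on groups that share the intron-rich replicates 1 and 2, the value was -0.89 and the adjusted p was 0.0108, so that Pex11a passed. Without WT CDDO-Me 1, or without KO CDDO-Me 1, neither of which belongs to this comparison but both of which share its estimate of spread, it also passed (adjusted p = 0.0458 and 0.0378). With the ribosomal RNA term it was -0.54 (adjusted p = 0.301).

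Vnn1 was at 7.23, 10.3, 22.0 and 29.3 CPM in WT DMSO and 3.10, 5.94, 9.58 and 3.24 CPM in KO untreated, a log2 difference of -1.66 ± 0.61 (adjusted p = 0.198). Angptl4 was at 82.7, 138, 171 and 159 CPM and 50.9, 48.2, 95.1 and 106 CPM, a difference of -0.87 ± 0.40 (adjusted p = 0.341). For both genes the highest KO library exceeded the lowest wild-type library. The Cyp4a31 difference was 1.59 ± 0.50 (adjusted p = 0.135). The median over the 3 omega oxidation genes was 1.09 and fell to -0.03 without KO untreated 4. The mitochondrial median was 0.02 and the peroxisomal median -0.06.

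KO CDDO-Me was compared with WT CDDO-Me to ask how the treated livers differ by genotype, the only pairwise comparison in which both arms had the drug and its solvent. Pex11a, Acaa1a and Acaa1b, 3 of the 5 peroxisomal genes, fell, and 0 genes rose. These 3 of 33 compare with 2.23% of all genes called lower and 3.3% called in either direction. Fitted values were negative for 32 of 33 genes, with positive values in 48.7% of all genes, and the median was -0.61 against -0.01 over all genes. At an unadjusted p under 0.05, 17 genes were lower and 0 higher, against 9.16% and 7.92% of all genes. The KO libraries lay wholly below the wild-type libraries for 16 of 33 genes, against 9.82% of all genes.

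Pex11a was at 49.1, 74.3, 71.2 and 90.1 CPM in WT CDDO-Me and 18.7, 24.7, 35.1 and 31.7 CPM in KO CDDO-Me. The groups did not overlap, and the level was 2.58-fold lower in KO, a log2 fold change of -1.37 ± 0.22 (adjusted p = 0.00162). Acaa1a was at 143, 146, 158 and 157 CPM and 85.6, 86.5, 86.7 and 107 CPM. It was 1.65-fold lower, -0.72 ± 0.14 on the log2 scale (adjusted p = 0.00981), and the 2 control groups overlapped KO CDDO-Me at their low end, with 105, 118, 143 and 151 CPM in WT DMSO and 98.2, 112, 129.6 and 125 CPM in KO untreated. Acaa1b was at 556, 403, 525 and 434 CPM and 102, 94.3, 254 and 313 CPM. It was 2.51-fold lower, -1.33 ± 0.32 on the log2 scale (adjusted p = 0.0296), while WT DMSO, at 440.3, 359, 503 and 438 CPM, overlapped KO untreated.

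Without both KO CDDO-Me 1 and 2, a fit with fewer libraries in which calls over all genes went from 534 to 140, 0 of 33 genes were called in this comparison, with Pex11a at -1.10 (adjusted p = 0.0671), Acaa1a at -0.64 (adjusted p = 0.228) and Acaa1b at -0.76 (adjusted p = 0.226). When 1 library was left out at a time, Pex11a and Acaa1a were called in 16 of 16 fits. Acaa1b was called in 10 of 16 fits and lost without any 1 of the 4 WT CDDO-Me libraries and without KO CDDO-Me 1 or 2, with adjusted p-values of 0.0504 to 0.0921. KO CDDO-Me 1 and 2 both lay below 3 and 4 for 28 of the 33 genes, including 13 of 13 mitochondrial, 5 of 5 peroxisomal and 3 of 3 omega oxidation genes, which held for 21.5% of all genes tested. Hepatocyte marker sums were 86283 and 92823 CPM in KO CDDO-Me 1 and 2 and 110235 and 102776 CPM in 3 and 4, and the part of this difference was not tested.

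Residual ribosomal RNA also separated these groups, at 0.0105% to 0.510% in WT CDDO-Me and 0.00108% to 0.00768% in KO CDDO-Me. WT CDDO-Me 1 had the lowest share of the WT CDDO-Me libraries. It was the lowest library of its group for Pex11a and Acaa1a and the highest for Acaa1b. For each of these genes it was above every KO CDDO-Me library. With a term for the libraries under 0.1%, chosen after seeing the data, all 33 fitted values were negative and 1 gene was called. In that fit 2542 of all 16206 genes had an unadjusted p under 0.05, against 2769 in the main test. With the term Acaa1a gave -0.80 (adjusted p = 0.0403), Pex11a -1.00 (adjusted p = 0.0562) and Acaa1b -1.44 (adjusted p = 0.0756). In wild type that term rests on 2 libraries, WT DMSO 4 and WT CDDO-Me 1.

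**Figure D4:**
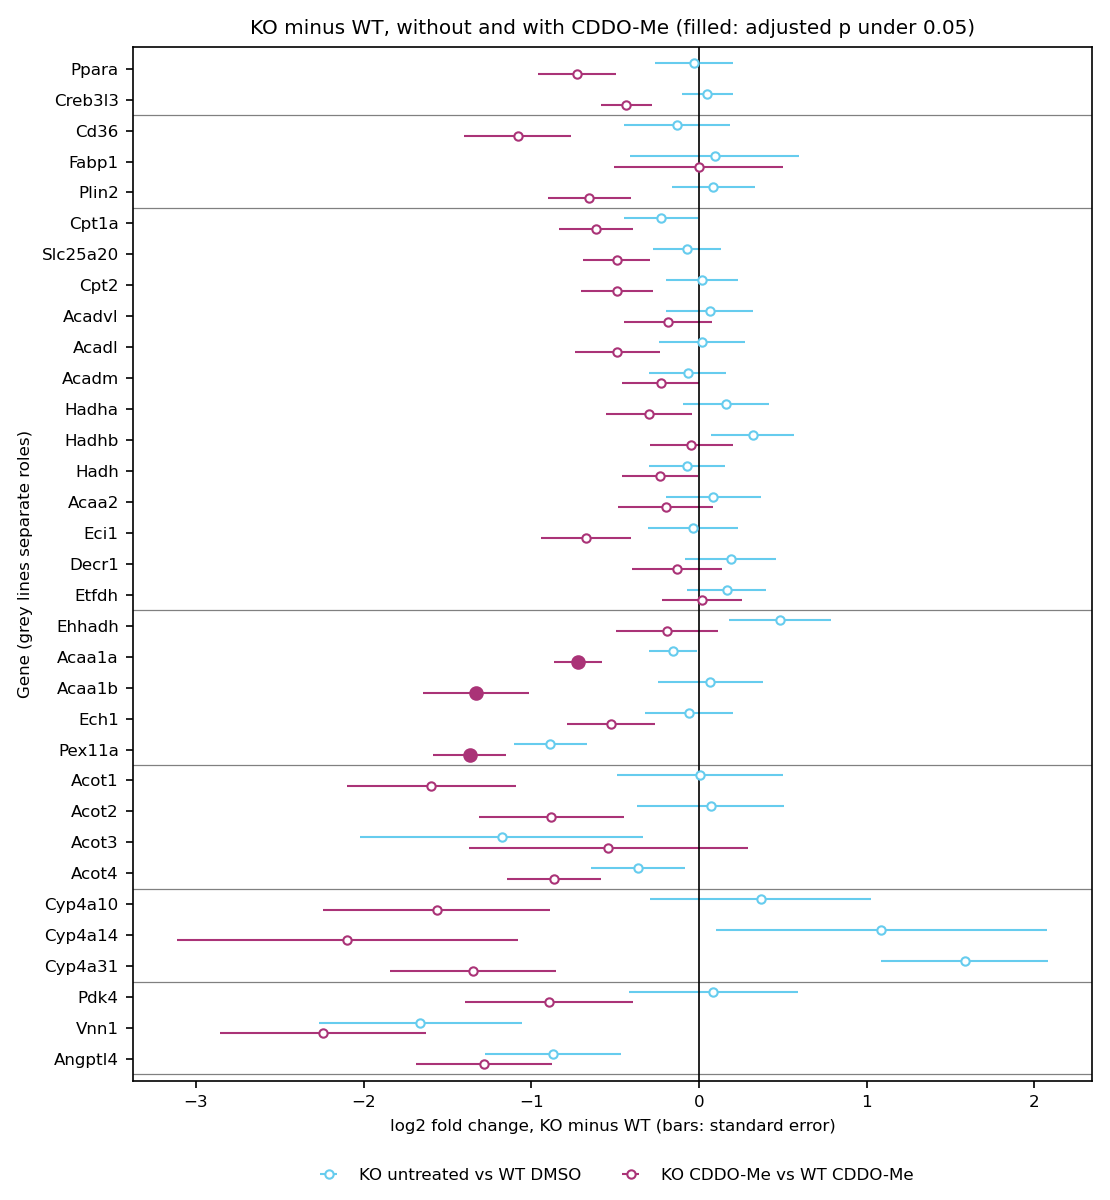
Log2 fold change of KO minus WT (x axis, bars are 1 SE) for each gene (y axis, by role), between the controls (light blue) and between the CDDO-Me groups (purple), with filled points for an adjusted p under 0.05. With CDDO-Me the values of 32 of 33 genes lie left of 0, and the 3 filled points are Acaa1a, Acaa1b and Pex11a.

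The stretches before the start sites of these 3 genes are shown because the genes fell together and 2 of them are neighbouring near-copies. Pex11a lies on chromosome 7 (79735957 to 79743131, minus strand), Acaa1a on chromosome 9 (119339676 to 119350299, plus strand) and Acaa1b on chromosome 9 (119148023 to 119157093, minus strand), all in GRCm38. The 130 bases before each RefSeq start (GRCm38.p6) follow, 5′ to 3′ on the gene's strand, from chr7:79743132-79743261, chr9:119341164-119341293 and chr9:119157094-119157223. Each stretch lies before the RefSeq start, but that of Acaa1a falls inside the longer gene span given above, and 21 of the Pex11a bases lie in an exon of Wdr93 on the other strand.
Pex11a: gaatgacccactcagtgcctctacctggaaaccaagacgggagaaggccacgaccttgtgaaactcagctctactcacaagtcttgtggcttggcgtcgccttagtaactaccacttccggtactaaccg
Acaa1a: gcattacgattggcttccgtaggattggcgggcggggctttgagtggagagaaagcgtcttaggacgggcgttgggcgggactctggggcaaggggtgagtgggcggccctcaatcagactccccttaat
Acaa1b: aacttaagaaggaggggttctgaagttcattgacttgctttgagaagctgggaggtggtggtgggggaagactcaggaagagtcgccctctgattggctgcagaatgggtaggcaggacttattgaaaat
The coding sequences of Acaa1a and Acaa1b are 96.5% identical (longest open reading frames, GENCODE M21), whereas the 250 bases before their starts are 58.2% identical over 220 aligned bases. Reads that both genes share could be lost or assigned to either, so the 2 levels are uncertain. Acaa1a also overlaps, on the opposite strand, Slc22a14, with 0 to 1 counts per library, and Myd88, with 129 to 2137. Whether the counting used strand is not stated in the sources used here.

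The 250 bases before the start were searched for 2 motifs, on both strands, in 32851 RefSeq windows that included 26 of the 33 genes. The DR1 element, a direct repeat of 2 AGGTCA half-sites spaced by any 1 base (N) that PPAR and RXR bind, was searched with up to 2 mismatches and was found in 3.24% of all windows. It was found in 5 of the 26, Creb3l3, Cd36, Fabp1, Plin2 and Acot4, and not in the windows of Pex11a, Acaa1a or Acaa1b. TGACNNNGC, the core of the antioxidant response element that NRF2 binds, had matches in 10.2% of all windows and in 3 of the 26, Fabp1, Ehhadh and Acot3. Overlapping matches of the 2 motifs were allowed. The shares over all windows count single windows, whereas a gene of the 26 counted if any of its windows matched. The 2 measures are therefore unlike. The 5 repeat matches are shown in capitals with up to 20 bases on either side, on the gene's strand. Of these, 4 lie before genes with a negative value at an unadjusted p under 0.05 in the genotype comparison of treated livers. Over all 33 genes, with or without a searched window, 17 met that criterion. A link between motif and response was not tested. The 5 stretches come from chr10:81092768-81092820, chr5:17835927-17835979, chr6:71199792-71199844, chr4:86670252-86670304 and chr12:84038346-84038378.
Creb3l3: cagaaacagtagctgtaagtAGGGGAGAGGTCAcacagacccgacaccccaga
Cd36: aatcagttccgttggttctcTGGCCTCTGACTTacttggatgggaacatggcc
Fabp1: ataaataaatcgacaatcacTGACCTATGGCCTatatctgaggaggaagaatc
Plin2: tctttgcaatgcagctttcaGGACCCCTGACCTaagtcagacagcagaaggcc
Acot4: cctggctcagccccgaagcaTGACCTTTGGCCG
In Fabp1 the match has 1 mismatch and lies 67 to 55 bases before the start, and the other 4 matches have 2 mismatches each. All but the Creb3l3 match read along the minus strand relative to the gene. The Creb3l3 and Cd36 stretches also fall inside the spans of their genes in GENCODE, which begin farther upstream. Annotated exons of the same gene cover 14 bases of the Creb3l3 stretch and 18 of the Fabp1 stretch.

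Outside the peroxisomal genes, none passed in the main test of the treated genotype comparison. Ppara was at 101, 105, 129 and 117 CPM in KO CDDO-Me, all below WT CDDO-Me, a log2 difference of -0.73 ± 0.23 (adjusted p = 0.106). With the ribosomal RNA term it was -0.26. In KO untreated it was at 127, 97.6, 168 and 128 CPM, inside the WT DMSO range. Creb3l3 was at 147, 143, 186 and 172 CPM in KO CDDO-Me and 208, 185, 214 and 190.5 CPM in KO untreated, and its treated difference was -0.43 ± 0.15 (adjusted p = 0.140).

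Cd36 was at 24.2, 28.7, 27.8 and 20.2 CPM in KO CDDO-Me, below all of WT CDDO-Me, with a difference of -1.08 ± 0.32 (adjusted p = 0.0776). In KO untreated it was at 13.5, 21.6, 24.8 and 46.8 CPM, of which replicate 4 was well above the other 3. Plin2 was at 263, 242, 318 and 228 CPM in KO CDDO-Me and 174, 221, 323 and 247 CPM in KO untreated. Its treated difference was -0.65 ± 0.25 (adjusted p = 0.173), and without WT CDDO-Me 1 the direction did not change. Fabp1 had a 95% confidence interval of -1.07 to 1.06 for its log2 difference, and KO CDDO-Me 1 and 2, at 283 and 270.2 CPM, were far below KO CDDO-Me 3 and 4, at 1634 and 1323 CPM. Stellate cell and fibroblast markers summed to 214 to 355 CPM in KO CDDO-Me, below the 402 to 451 CPM of WT CDDO-Me. Kupffer cell markers overlapped, at 264 to 412 CPM in KO CDDO-Me and 359 to 500 CPM in WT CDDO-Me. Liver endothelial markers also overlapped, at 243 to 378 CPM and 330 to 377 CPM. The part of these cell types was not tested.

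Of the 13 mitochondrial genes, 12 had a negative fitted value, 4 of them at an unadjusted p under 0.05 (Cpt1a, Slc25a20, Cpt2 and Eci1), with a median of -0.23. Cpt1a was at 285, 322, 372 and 362 CPM in KO CDDO-Me and 239, 212, 369 and 411 CPM in KO untreated. Slc25a20 was at 52.8, 56.1, 82.4 and 73.0 CPM and 47.5, 54.4, 78.1 and 59.4 CPM. Cpt2 was at 87.3, 92.7, 104 and 95.2 CPM and 57.0, 85.9, 99.2 and 103 CPM. The KO CDDO-Me libraries lay below all WT CDDO-Me libraries for Cpt1a and Cpt2, but KO CDDO-Me 3 overlapped them for Slc25a20. Eci1, an enoyl-CoA isomerase needed for unsaturated chains, was at 36.8, 33.9, 64.6 and 56.1 CPM in WT DMSO, 67.5, 66.4, 75.1 and 72.5 in WT CDDO-Me, 26.2, 35.8, 67.1 and 57.6 in KO untreated and 37.0, 35.3, 54.9 and 49.3 in KO CDDO-Me. The log2 differences of the 4 genes with CDDO-Me were -0.61 ± 0.22, -0.49 ± 0.20, -0.49 ± 0.22 and -0.67 ± 0.27, with adjusted p-values of 0.156, 0.216, 0.254 and 0.199.

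The remaining mitochondrial genes carry out the cycle itself. The dehydrogenases Acadvl, Acadl and Acadm gave -0.18, -0.49 and -0.23 on the log2 scale in the treated genotype comparison. The trifunctional protein subunits Hadha and Hadhb gave -0.30 and -0.05, the hydroxyacyl-CoA dehydrogenase Hadh -0.23 and the thiolase Acaa2 -0.20. Decr1, a reductase for unsaturated chains, gave -0.13, and Etfdh, which passes electrons to the respiratory chain, gave 0.02. Only for Acadl among these 9 did the groups not overlap.

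The other 2 peroxisomal genes did not pass in the main test. Ehhadh, the bifunctional enzyme of the peroxisomal cycle, gave -0.19 ± 0.30, with levels of 107 to 202 CPM in KO CDDO-Me and 153 to 210 CPM in WT CDDO-Me. Ech1, a dienoyl-CoA isomerase, gave -0.52 ± 0.26 and its groups did not overlap.

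Acot1, a cytosolic thioesterase, was at 6.96, 5.69, 12.4 and 8.86 CPM in WT DMSO, 18.0, 7.59, 11.4 and 14.1 in WT CDDO-Me, 3.15, 4.49, 10.1 and 16.2 in KO untreated and 2.27, 1.68, 6.66 and 6.26 in KO CDDO-Me. The treated groups did not overlap, with a difference of -1.60 ± 0.50 (adjusted p = 0.101), or -1.00 without KO CDDO-Me 1 and 2. Acot4 was at 11.0, 10.3, 17.9 and 23.6 CPM in KO untreated and 21.1, 21.8, 17.6 and 24.0 CPM in KO CDDO-Me, a treated difference of -0.86 ± 0.28 (adjusted p = 0.109). The mitochondrial Acot2 and the peroxisomal Acot3 gave -0.88 ± 0.43 and -0.54 ± 0.83. Acot1 and Acot2 are 95.5% identical in coding sequence, so reads may be divided between them.

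Vnn1 was at 18.5, 21.9, 20.4 and 27.1 CPM in WT CDDO-Me and 1.497, 0.766, 9.08 and 6.91 CPM in KO CDDO-Me. The groups did not overlap and the level was 4.74-fold lower in KO, but the log2 value of -2.24 ± 0.61 had an adjusted p of 0.0576. Angptl4 was at 124, 114, 103 and 145 CPM and 13.3, 44.5, 82.3 and 59.8 CPM, again without overlap, and gave -1.28 ± 0.41 (adjusted p = 0.103). Pdk4 gave -0.89 ± 0.50 with overlapping groups. The omega oxidation genes gave -1.56 ± 0.68 for Cyp4a10 (adjusted p = 0.243), -2.10 ± 1.02 for Cyp4a14 (adjusted p = 0.310) and -1.35 ± 0.49 for Cyp4a31 (adjusted p = 0.163). Without KO CDDO-Me 1 and 2 the values were -1.46 for Vnn1, -0.78 for Angptl4, -0.76 for Cyp4a10 and -0.88 for Cyp4a31. For all 3 omega oxidation genes the groups overlapped, WT CDDO-Me 3 being the wild-type library inside the KO range. Cyp4a10 and Cyp4a31 are 96.6% identical in coding sequence, which leaves the division of their reads uncertain, while Cyp4a10 and Cyp4a14 are 76.8% identical.

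The drug responses in WT and KO were set against each other through the interaction term, the WT response minus the KO response. None of the 33 genes was called, against 0.13% of the genes tested. DESeq2 called 1, Cyp4a31, against 176 of all 16206 genes. At an unadjusted p under 0.05, 8 genes were positive and 0 negative, against 4.96% and 3.57% of all genes. They were Ppara, Creb3l3, Plin2, Acaa1a, Acaa1b, Acot1, Cyp4a14 and Cyp4a31. The fitted interaction was 2.93 ± 0.70 for Cyp4a31 (adjusted p = 0.132), 1.40 ± 0.44 for Acaa1b (adjusted p = 0.307) and 0.48 ± 0.30 for Pex11a (adjusted p = 0.759). Since no interaction passed, the drug responses of these genes were not shown to differ between the genotypes, although the fitted interaction was positive for 32 of 33 genes (51% of all genes). Without KO CDDO-Me 1 and 2 it was positive for 27 of 33. The mitochondrial median of the interaction was then 0.17, against 0.36 in the main test.

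The 3 oxidation routes were compared by their median log2 values. In the treated genotype comparison the median log2 difference was -0.23 for the 13 mitochondrial, -0.72 for the 5 peroxisomal and -1.56 for the 3 omega oxidation genes. Without KO CDDO-Me 1 and 2 these medians were -0.10, -0.64 and -0.88, and with the ribosomal RNA term -0.35, -0.80 and -1.31. In the interaction the medians were 0.36, 0.57 and 2.93, all positive. In the KO drug comparison the main medians had unlike signs, at 0.12, -0.34 and -1.98. They were -0.20, -0.45 and -2.44 without the 4 intron-rich libraries, and 0.28, -0.17 and -1.48 without KO CDDO-Me 1 and 2. Between the controls the main medians were 0.02, -0.06 and 1.09. Without KO untreated 4 they were -0.08, -0.18 and -0.03, and with the ribosomal RNA term -0.03, -0.09 and 1.39. Whether the signs differed between routes therefore depended on the fit. The pooled within-group SD of the library medians was 0.357 for mitochondrial, 0.241 for peroxisomal and 1.02 for omega oxidation genes. Peroxisomal medians had the smallest spread, and peroxisomal genes held all 3 calls of the main test. These were Pex11a, whose protein takes part in peroxisome division, and the near-copies Acaa1a and Acaa1b. The omega oxidation medians had the largest values with the largest spread and 0 calls. In other fits of the treated genotype comparison the calls were not confined to peroxisomal genes. Without the 4 intron-rich libraries, 4 mitochondrial and 3 peroxisomal genes were called. Over all genes 1482 of 16396 were called in that fit, against 534 of 16206 in the main test. With the intronic share as a covariate, 5 mitochondrial and 4 peroxisomal genes were called, with 2168 of 16206 over all genes. In both fits 0 omega oxidation genes were called. No test between the routes was made.

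Of 82 other genes of the pathway, 79 passed the low-count filter. In wild type with CDDO-Me, 3 of 79 rose and 0 fell, against 0.555% and 0.173% of all genes. Fgf21, a fasting hormone secreted by liver, was at 1.02, 1.11, 1.00 and 0.0918 CPM in WT DMSO and 90.3, 7.89, 15.1 and 21.8 CPM in WT CDDO-Me, a log2 fold change of 5.46 ± 0.76 (adjusted p = 0.00129). Slc22a5, the plasma membrane carnitine transporter, changed by 0.98 ± 0.20 (adjusted p = 0.0261) and Crat, carnitine acetyltransferase, by 1.07 ± 0.24 (adjusted p = 0.0497). The Crat call was kept in 3 of 16 fits that leave out 1 library and lost in 22 of all 28 alternatives, and that of Slc22a5 was kept in 11 of 16 and lost in 10 of 28. In the KO drug comparison and in the interaction, 0 of 79 were called by edgeR, against 0.13% of all genes in each. DESeq2 called 3 and 2 of the 79, against 298 and 176 of all 16206 genes. At an unadjusted p under 0.05, 2 were higher and 7 lower in the KO drug comparison, against 6.24% and 9.58% of all genes, and 11 were positive and 1 negative in the interaction, against 4.96% and 3.57%. Fgf21 in KO was at 0.290 to 1.07 CPM untreated and 0.622 to 1.37 CPM with CDDO-Me, and its interaction was 5.13 ± 1.04 (adjusted p = 0.0741).

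Between the controls, Slc22a5 was lower in KO by -1.03 ± 0.20 (adjusted p = 0.0156) and Acsl3, a long-chain acyl-CoA synthetase, was higher by 1.24 ± 0.28 (adjusted p = 0.0411), 1 of 79 each way against 0.969% lower and 0.407% higher among all genes. The Acsl3 call was kept in 4 of 16 fits that leave out 1 library and lost in 16 of 28 alternatives. Between the treated groups, 3 of 79 rose and 9 fell, against 1.06% and 2.23% of all genes. The genes that fell included the catalase gene Cat at -1.05 ± 0.27 and the peroxisomal branched-chain acyl-CoA oxidase gene Acox2 at -0.83 ± 0.13. The peroxisomal thioesterase Acot8 gave -0.69 ± 0.16. Aldh3a2, the fatty aldehyde dehydrogenase that completes omega oxidation, fell by 1.26 on the log2 scale (adjusted p = 0.0341). Fgf21 gave -5.10 ± 0.72, Slc22a5 -1.30 ± 0.20, the receptor Pparg -1.80 ± 0.28 and the triglyceride lipase Pnpla2 -1.16 ± 0.24. Those that rose included Acsl3 at 1.37 ± 0.28 and the coactivator Ppargc1a at 1.54 ± 0.38. Without KO CDDO-Me 1 and 2, a fit with 140 of 16842 genes called, Fgf21 was the only 1 of these 12 still called. With the ribosomal RNA term 6 of all 79 were called. In that fit 2542 of all 16206 genes had an unadjusted p under 0.05, against 2769 in the main test. Between the treated groups, Fgf21, Slc22a5, Pparg and Acox2 were called in 16 of 16 fits that leave out 1 library. Pnpla2 and Acsl3 were called in 14, Acot8 in 11, Aldh3a2 and Ppargc1a in 10 and Cat in 7. Of all 28 alternatives, the Cat call was lost in 12, that of Acot8 in 10, Aldh3a2 in 8 and Ppargc1a in 7.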

How the data were processed

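RNA was depleted of ribosomal RNA and made into directional libraries, per the labels' protocols. The authors deposited whole-number read counts per gene and, per the file headers, FPKM values. FPKM equalled the deposited count divided by gene length and library total (largest relative deviation 6.04e-08). The submitters' processing notes name the build GRCm38.p5, the aligner TopHat2 2.1.0 and the counter HTSeq 0.6.1p1, as well as cutadapt 1.2.1, CASAVA 1.8.2 and DESeq2. Whether the counting used strand is not stated in the sources used here. The 33 genes, the other lists and the naming rule were chosen with earlier results of these data known. The naming rule gives every library's value for each of the 33 genes with an unadjusted p under 0.05 in any comparison, and names each other pathway gene that was called, up to 15, except for a few results that are not reported here.

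Counts were tested with edgeR 4.0.16 (R 4.3.3), a quasi-likelihood test with TMM scaling over all 16 libraries. The low-count filter left 16206 genes, p-values were Benjamini-Hochberg adjusted over these, and a gene was called under 0.05. Standard errors are on the log2 scale. DESeq2 1.42.0, limma 3.58.1 on log2(FPKM + 1) and log2(FPKM + 0.1), other scaling, no filter, a replicate block, omitted libraries and terms for the intronic share and for ribosomal RNA were alternatives. The script was tested on simulated data. Replicate numbers are shared between groups: same-numbered deviations from group means correlated by 0.37 to 0.48 in all 4 pairs of KO untreated and WT DMSO, which meets the limit of 0.1 set for pairing, although both groups share the split of intron-rich replicates 1 and 2, but by -0.45 to 0.35 in the other pairwise comparisons. No library was a duplicate: chi-square per degree of freedom was at least 15.1 between any 2. Positions and coding sequences came from GENCODE M21 and promoters from RefSeq.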

Additional observations from a re-analysis of the deposited data

Results flagged for a closer look

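Among the 33 genes, 9 of 132 tests of a gene in a group of 4 found a library whose gap to the nearest of the others exceeded Dixon's 95% critical value, and chance gives about 1 in 20. WT CDDO-Me 1, the most deeply sequenced library, accounted for 4. There Plin2 was at 580.6 CPM against 339 to 370.4 CPM in the other WT CDDO-Me libraries. In the same library Acadvl was at 344.7 CPM (others 384 to 390 CPM), Decr1 at 93.4 CPM (others 106.9 to 109.0 CPM) and Etfdh at 161.7 CPM (others 194 to 199 CPM), all low. Cyp4a14 was at 456.5 CPM in KO untreated 4, against 23.5 to 42.2 CPM in the rest of its group. Acaa1b was at 573.7 CPM in KO untreated 3, against 406 to 434 CPM. Acaa1a was at 107.5 CPM in KO CDDO-Me 4, against 85.6 to 86.7 CPM. In WT DMSO, Acot4 was at 31.6 CPM in replicate 3, against 15.5 to 17.6 CPM, and Pdk4 at 20.3 CPM in replicate 1, against 4.23 to 5.29 CPM.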

How the results depend on the processing

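Every alternative was run on all 5 comparisons, given here in the order WT drug, KO drug, KO against WT controls, KO against WT with CDDO-Me, and interaction. None of the 33 genes with an unadjusted p under 0.05 in a comparison changed sign there in any of 28 other settings, whereas of those above it 13 of 26, 22 of 28, 22 of 29, 6 of 16 and 6 of 25 did. The p-values that split the genes and the 28 settings come from the same libraries, so a kept sign is not independent support. The cause was not tested for the changes below. With DESeq2 the numbers of the 33 genes called were 1, 2, 2, 9 and 1 (0, 0, 0, 3 and 0 in the main test), and of all genes 471, 298, 657, 1125 and 176 (118, 21, 223, 534 and 21). With limma on log2(FPKM + 1) they were 2 of the 33 in the KO drug and 6 in the treated genotype comparison, with 67, 959 and 57 of all genes in the KO drug, treated genotype and interaction comparisons. With log2(FPKM + 0.1) the same values were 1, 6, 55, 970 and 54. The FPKM scale moved the split of calls in the treated genotype comparison from 172 higher and 362 lower to 635 and 324 (643 and 327 with 0.1). In the 5 comparisons the median of all genes was -0.13, -0.22, 0.17, 0.11 and 0.06 with log2(FPKM + 0.1), against -0.02, -0.04, 0.00, -0.01 and 0.01 in the main test, and FPKM values are read relative to these. Without a low-count filter 51 and 38 genes were called in the KO drug and interaction comparisons.

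With a replicate block, 1 of the 33 was called in the WT drug, 1 in the control genotype and 9 in the treated genotype comparison, and 226, 46, 811 and 42 of all genes in the WT drug, KO drug, treated genotype and interaction comparisons. The same-numbered library correlated best in 1, 1, 2 and 3 of 4 cases in the first 4 comparisons. Without the 4 intron-rich libraries, 11 of the 33 were called in the treated genotype comparison, 4, 86, 1482 and 67 of all genes in the last 4 comparisons, and the WT drug mitochondrial median was 0.0762. Without WT DMSO 4 and WT CDDO-Me 1, 1 of the 33 was called between controls and 88 of all genes in the KO drug comparison. The next alternatives were chosen after seeing the data. Without KO CDDO-Me 1 and 2, 0 of the 33 were called in the treated genotype comparison, and 3, 140 and 9 of all genes in the KO drug, treated genotype and interaction comparisons. With the intronic share as a covariate, 1 and 17 of the 33 were called in the 2 genotype comparisons, and 86, 824, 2168 and 201 of all genes in the last 4. With this covariate and the replicate block these were 1 and 17, and 823, 2094 and 142 of all genes in the last 3, with a WT drug peroxisomal median of 0.48. With the ribosomal RNA term, 1 of the 33 was called in the treated genotype comparison and 698 of all genes between controls.

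Leaving out 1 library at a time gave 0 to 1, 0 to 1 and 2 to 5 of the 33 in the WT drug, control and treated genotype comparisons, and 54 to 219, 4 to 133, 104 to 271, 265 to 820 and 18 to 48 of all genes in the 5 comparisons. The omega oxidation median ranged from -0.0318 to 1.52 between controls and from 1.53 to 3.30 in the interaction, both lowest without KO untreated 4. Counts as low as 1 per library for Acot3 limit what could be seen of that gene at this depth.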

Other observations

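Fgf21 and Plin2 were both highest in WT CDDO-Me 1, where Fgf21 was at 90.3 CPM against 7.89 to 21.8 CPM in the other WT CDDO-Me libraries. KO CDDO-Me 1 and 2 also stood below 3 and 4 for Aldh3a2, at 57.9 and 46.8 CPM against 124 and 119 CPM, and for Cat, at 1377 and 1427 CPM against 2202 and 1943 CPM.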
